A study of Mus musculus with 2 samples.

Results

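The serpin genes of the mouse were placed on a map of chromosome domains of olfactory sensory neurons. Members were all autosomal protein-coding genes whose symbol begins with Serpin in the GENCODE M21 annotation of GRCm38, which gave 60 genes of 20807 autosomal protein-coding genes. They fell into 1 Serpina cluster of 23 genes on chromosome 12, 2 Serpinb clusters of 11 genes on chromosome 1 and 15 genes on chromosome 13, and 11 lone members elsewhere, where a cluster was a run of at least 5 serpin genes whose neighbouring transcription start sites (TSSs) lay under 500 kb apart. The map came from in situ Hi-C, which ligates DNA ends that are close together in the nucleus, on adult 129P2/OlaHsd mice of mixed sex carrying the P2-GFP allele, from whose olfactory epithelium GFP-marked neurons expressing the olfactory receptor Olfr17 (P2) were sorted. The 2 biological replicates held 23000 and 20000 cells, were crosslinked with 1% formaldehyde and cut with DpnII, and form 1 group, for which no treatment or further modification is listed. How many mice stand behind each replicate is not known here. Domain boundaries were called by the authors after pooling the contacts of both replicates. A single list resulted, with no spread between replicates and no other cell type beside it. All values below are therefore descriptions of 1 map, and no test was made. No RNA was measured, so the identity of the cells could not be checked against marker genes.

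Serpins are a superfamily of proteins with a common fold and an exposed reactive loop. In inhibitory serpins a protease cleaves the loop, the serpin snaps into a more stable shape, and the protease is trapped in a covalent complex. Clade A members (Serpina) are mostly secreted by the liver into plasma, clade B members (Serpinb) act inside cells or at epithelia, and lone members include the main inhibitors of coagulation, fibrinolysis and complement, a collagen chaperone and serpins of the nervous system. Both clades expanded by tandem duplication in rodents. Hi-C contacts are depleted across a domain boundary, and the interval between neighbouring boundaries is a stretch of chromosome within which contacts are more frequent.

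In the deposited list a boundary occupies 5 kb and carries a class, Strong or Weak, and in column 5 a score. The score has no stated unit and is compared only within this list. The 7169 autosomal boundaries had a median score of 0.564 (quartiles 0.317 and 0.994). Of these, 3917 were Strong (54.6%), with scores of at least 0.5002, and the Weak ones reached at most 0.4996. Distances were taken from a TSS to the midpoint of the bin, so they are resolved to about 2.5 kb. Sequencing depth is unknown, since no number of contacts was at hand.

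The boundaries at the serpin clusters are shown first by the sequences nearest to them that match the CTCF core consensus. CTCF binds DNA through zinc fingers and stops loop-extruding cohesin at many domain borders. Only 5 of the 12 boundaries that flank the clusters or lie inside them had such a match within 10 kb, and the nearest match of each is printed below from the GRCm38 reference, with the matched 12 bases in capitals.
Serpina cluster, left flank (chr12:103387217-103387246, minus strand): cttcagaccCCAGAAGAGGGCatcagatct
Serpina cluster, right flank (chr12:104419333-104419362, minus strand): ccacgtgtgCCAGTAGGTGGCagagaggag
Serpinb cluster on chromosome 13, left flank (chr13:32750766-32750795, plus strand): tgcttgtggCCAAGAGAGGGCctatgactt
Serpinb cluster on chromosome 13, between Serpinb1c and Serpinb6b (chr13:32902632-32902661, plus strand): tcatcatggCCACTAGGTGGCgggcatgcc
Serpinb cluster on chromosome 13, left of Serpinb1b (chr13:33079636-33079665, minus strand): tcctcattaCCACTAGGTGGCactcatttg
The match between Serpinb1c and Serpinb6b lay 0.146 kb from the midpoint of its boundary, inside the bin. The other 4 lay 3.15 to 7.15 kb away, outside the bins. The labels give the place of the boundary, and the match printed last lies inside the body of Serpinb1b (33078575 to 33094380). The match at the right flank of the Serpina cluster read away from its boundary, as did the one 0.146 kb away, and the other 3 read towards theirs. No match lay within 10 kb of any of the 3 boundaries at the Serpinb cluster on chromosome 1. Over all autosomal boundaries 59.0% had a match within 10 kb, and 41.8% of 119568 autosomal windows of the same 20 kb held one. These are matches of letters on the C57BL/6J reference and not measured binding.

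Serpin genes lay farther from boundaries than protein-coding genes at large. The median distance from a serpin TSS to the nearest boundary was 84.4 kb (quartiles 50.4 and 140.1 kb), beside 58.4 kb (26.1 and 105 kb) for all 20807 genes. Of the 60 serpin genes, 8 (13.3%) started within 25 kb of a boundary, where the share of all autosomal protein-coding genes was 24.3%. Within 10 kb there were 3 serpin genes (5.00%, beside 11.7%), and within 50 kb there were 15 (25.0%, beside 43.7%). By GENCODE starts the 3 nearest were Serpinh1 at 0.739 kb, Serpinb1c at 4.29 kb and Serpinb1b at 6.07 kb. The promoter entry of Serpinb1b in RefSeq (33083853 to 33084102) lies more than 10 kb from that boundary. Neighbouring members share boundaries, so the 60 distances are not independent of each other.

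The clustered and the lone members did not separate by distance. The median distance was 86.4 kb for the 23 clustered Serpina genes (range 11.1 to 211 kb), 92.1 kb for the 26 clustered Serpinb genes (4.29 to 398 kb) and 67.9 kb for the 11 lone members (0.739 to 169 kb), and the ranges overlapped throughout. Within 25 kb lay 3 of 23, 4 of 26 and 1 of 11 genes. The nearest boundary was Weak for 16 of 23 Serpina genes and for 9 of 11 lone members. All 11 genes of the Serpinb cluster on chromosome 1 had a Strong boundary as their nearest one, beside 5 of 15 on chromosome 13 and 65.3% of all autosomal protein-coding genes. The nearest boundary lay on the 5′ side of the TSS for 31 of 60 serpin genes, a share of 51.7% beside 51.9% of all genes.

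**Figure D1:**
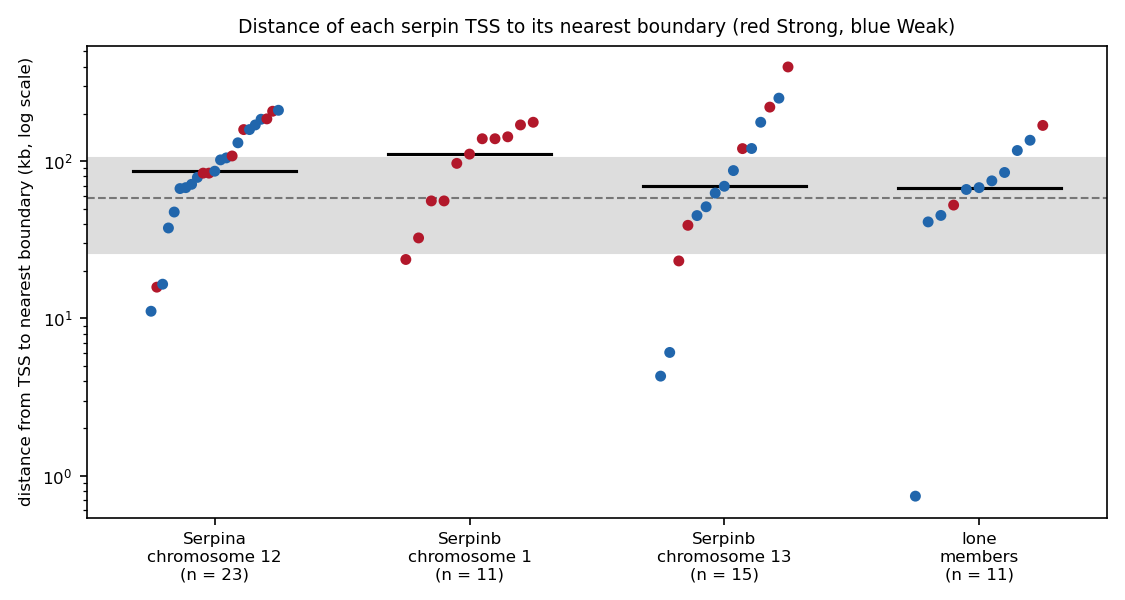
Distance in kb (log scale) from the TSS of each of the 60 serpin genes to its nearest boundary, by cluster, with points in red where that boundary is Strong and in blue where it is Weak, and a black bar at each median. The grey band and dashed line are the quartiles (26.1 and 105 kb) and the median (58.4 kb) of all autosomal protein-coding genes. The 4 groups overlap, and Serpinh1 lies lowest at 0.739 kb.

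The scores of the boundaries overlapped between places. All 6 boundaries that flank the 3 clusters on the outside were Strong, with scores from 0.839 to 1.71 and a median of 1.06. Of the 6 boundaries inside the clusters 2 were Strong, and their scores ran from 0.285 to 2.33 with a median of 0.460. Only 2 of these 6 inside boundaries, both Weak, lay where at least 80% of reference reads within 50 kb align back uniquely, and the part of read placement in their scores was not tested. Of the 19 boundaries that flank lone members 7 were Strong (36.8%), with a range of 0.221 to 1.93 and a median of 0.451. The flanking scores of lone members thus span those of the cluster flanks, and the score of the 1 boundary in Serpinb6c, 2.33, was the highest of all 31. Over all 31 boundaries around serpin intervals 15 were Strong (48.4%), beside 54.6% of autosomal boundaries, and the median score was 0.492 beside 0.564. Of the 6413 autosomal boundaries that flank an interval with a protein-coding TSS, 59.3% were Strong, with a median score of 0.615.

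**Figure D2:**
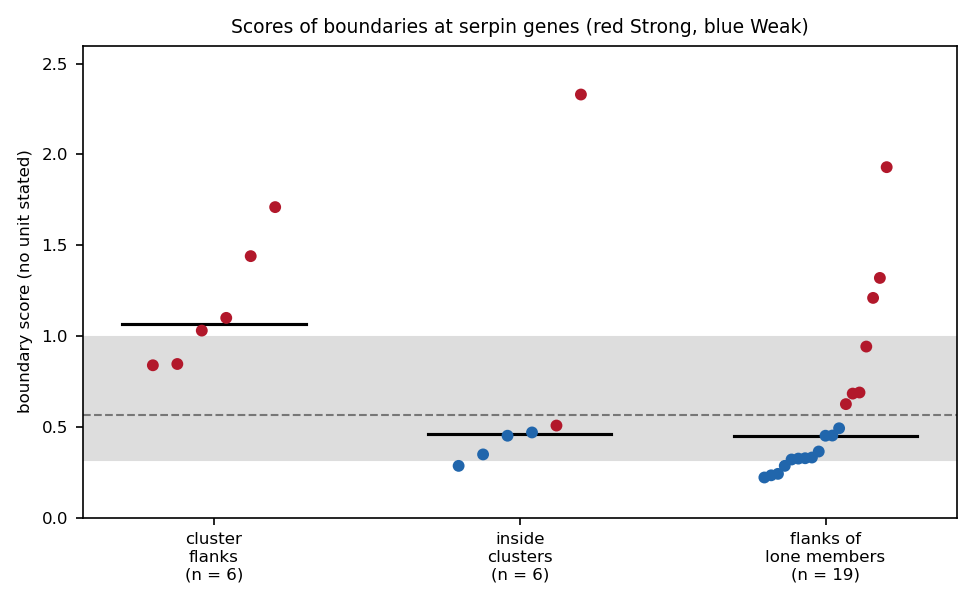
Boundary score (no unit stated) of the 6 outer flanks of the serpin clusters, the 6 boundaries inside them and the 19 flanks of lone members, with red points for Strong and blue for Weak boundaries and a black bar at each median (1.06, 0.460 and 0.451). The grey band and dashed line are the quartiles and the median (0.564) of all 7169 autosomal boundaries. All cluster flanks are Strong, and the inside group holds both low scores and the highest one.

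The 60 genes occupied 19 intervals, with a median length of 300.0 kb (range 130.0 to 810.0 kb). The 5512 autosomal intervals that hold a protein-coding TSS had quartiles of 180.0 and 375 kb. The 3 Serpina intervals had a median of 380.0 kb, the 6 Serpinb intervals 343 kb and the 10 intervals of lone members 280.0 kb. Both ends were Weak for 6 of the 19 intervals (31.6%, beside 13.4% of all those with a TSS), and both were Strong for 4 (21.1%, beside 36.2%). Where neighbouring serpin genes in the clusters were taken in pairs, a boundary separated 1 of 10 pairs on chromosome 1, 2 of 22 on chromosome 12 and 3 of 14 on chromosome 13, beside 26.6% of all neighbouring autosomal protein-coding pairs. The shares were not compared at equal spacing of the TSSs. On chromosome 13 the serpin pairs also skip 3 other protein-coding genes that start within the cluster.

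The Serpina cluster spans 799.5 kb of chromosome 12 (103614786 to 104414329), from Serpina10, the protein Z-dependent protease inhibitor, to Serpina3n, an antichymotrypsin-like serpin. It held 28.8 serpin genes per Mb and 2 boundaries, or 2.5 per Mb, beside 2.99 per sequenced Mb of the autosomes. Both inside boundaries were Weak. The first (103760001 to 103765000, score 0.469) overlapped an exon and intron of Serpina1d and an intron of the GENCODE model of Serpina1b, and the second (103940001 to 103945000, score 0.348) was intergenic, 16.5 kb from the TSS of Serpina1e. They fall among Serpina1a to Serpina1e, the mouse copies of the gene of alpha-1-antitrypsin, the plasma inhibitor of neutrophil elastase.

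The edges of the Serpina cluster differed from each other. On the right a Strong boundary (104420001 to 104425000, score 1.71, above 93.0% of autosomal boundaries) lay 8.17 kb beyond the end of Serpina3n and 15.8 kb from its TSS. It separates the cluster from the next gene, Gsc, a homeobox transcription factor of the embryonic organizer, which starts 56.9 kb after the last serpin. On the left the next protein-coding gene, Ppp4r4, a regulatory subunit of protein phosphatase, ends only 0.955 kb before Serpina10, and the nearest outside boundary (103380001 to 103385000, Strong, score 1.03) lay 232 kb away, 6.18 kb from the TSS of Otub2, the gene of a deubiquitinating enzyme. The first serpin interval therefore also held 7 other protein-coding genes, Ppp4r4 and Otub2 among them.

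Serpina10, Serpina6 (corticosteroid-binding globulin), Serpina16 and Serpina1f shared that first interval of 380.0 kb. The second interval, of 180.0 kb between both Weak boundaries, held no TSS but those of Serpina1d, Serpina1b, Serpina1a and Serpina1c by the GENCODE starts. The third, of 480.0 kb, held 15 serpin genes and no other protein-coding TSS. These were Serpina1e, Serpina11, Serpina9 (a serpin of germinal centre B cells), Serpina12 (vaspin, a secreted serpin of fat tissue), Serpina5 (the protein C inhibitor) and all 10 protein-coding Serpina3 genes, so that the antichymotrypsin-like genes lay together in 1 interval. Of the 5512 autosomal intervals with a TSS, 84.9% were shorter than this one.

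Within the cluster Serpina1d, at 11.1 kb, and Serpina3n, at 15.8 kb, lay nearest to a boundary. Serpina3f at 208 kb and Serpina3c at 211 kb lay farthest. With Strong boundaries alone, all 23 Serpina genes lay in 1 interval of 1040 kb, from the boundary near Otub2 to the one beyond Serpina3n.

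**Figure D3:**
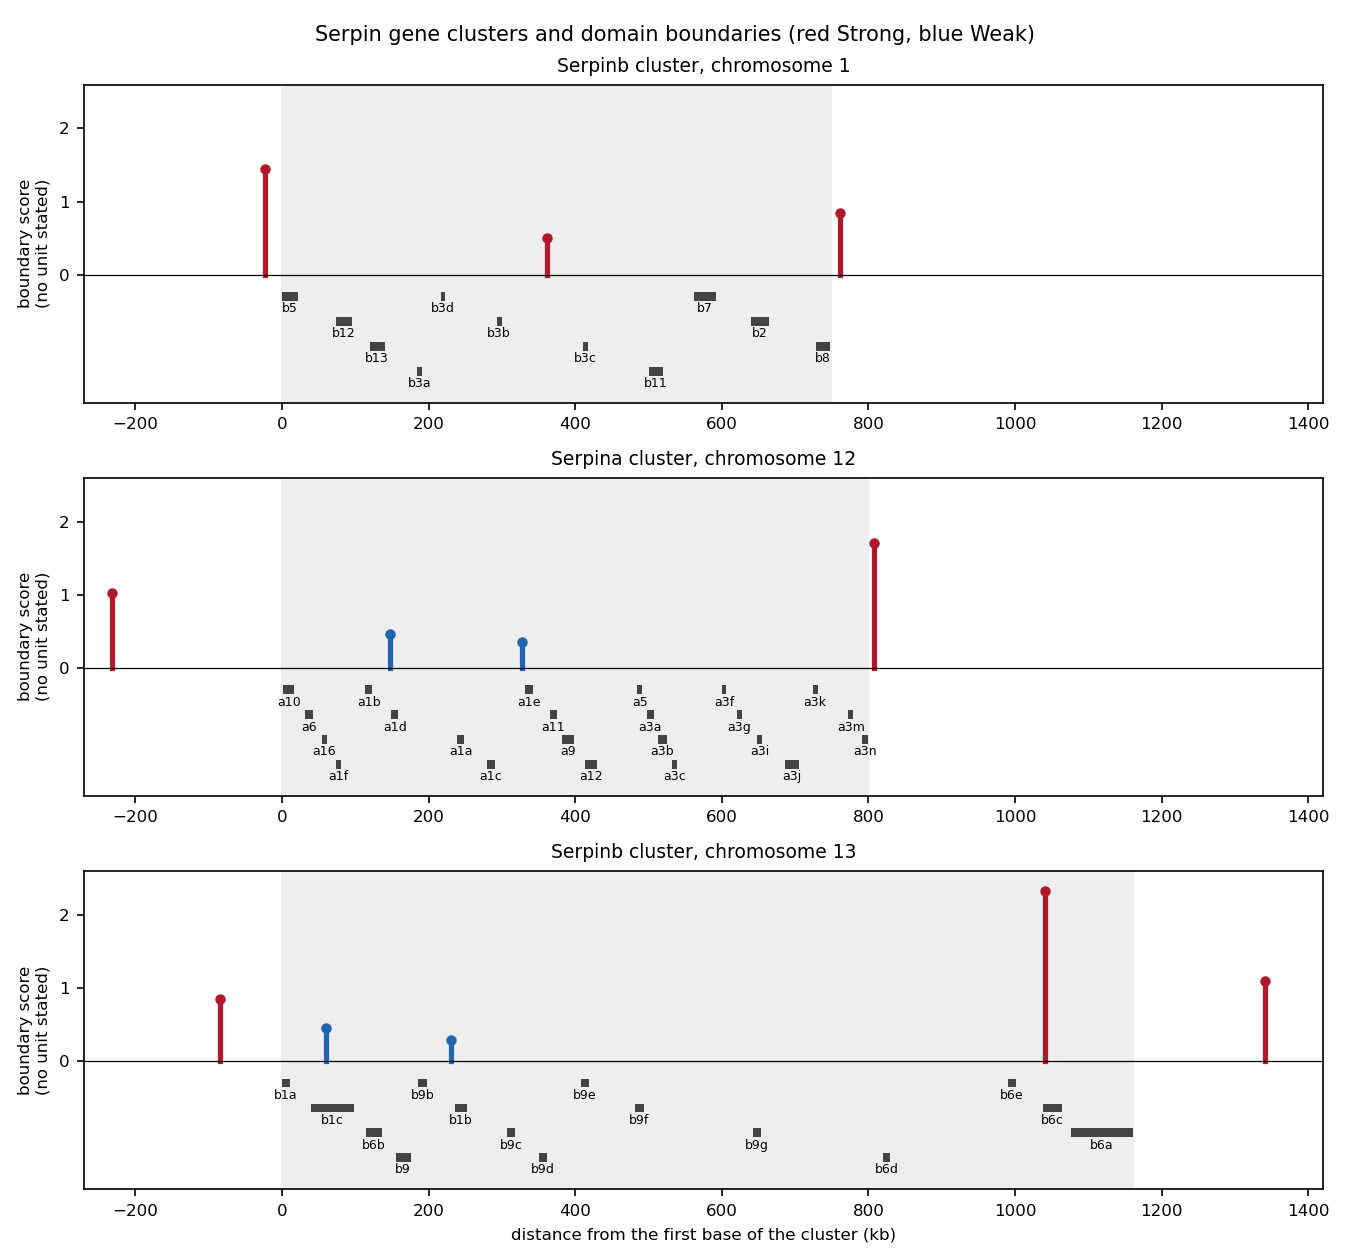
The 3 serpin clusters with distance from the first base of each cluster in kb on the x axis, boundaries as vertical lines whose height is the score (red Strong, blue Weak), the cluster span in grey and serpin genes as dark bars at their RefSeq positions, labelled without the prefix Serpin and staggered for legibility. The outer lines are Strong in each panel. The Serpina genes are split by 2 Weak lines, and the highest line, 2.33, crosses Serpinb6c on chromosome 13.

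The place of Serpina1b depends on the annotation. GENCODE gives it a body of 102 kb (103728156 to 103830373) that spans Serpina1d and the first inside boundary, whereas RefSeq on the same build gives it 10.0 kb (103728156 to 103738189). By the RefSeq start, which lies 92.2 kb from the GENCODE one, Serpina1b was 24.3 kb from the boundary and on its left side, in the first interval. The 5 copies Serpina1a to Serpina1e then occupied 3 intervals, with Serpina1b in the first, Serpina1d, Serpina1a and Serpina1c in the second and Serpina1e in the third. Their coding sequences were 96.3 to 98.5% identical in all 10 pairs, so that near-identical copies lay on different sides of called boundaries.

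The 250 bases upstream of the RefSeq starts are shown for 1 copy from each of these intervals, since they are almost the same on both sides of each boundary. Capitals mark GTTAAT, the core of the element bound by the liver factor HNF1, searched on both strands.
Serpina1b (chr12:103738190-103738439, minus strand): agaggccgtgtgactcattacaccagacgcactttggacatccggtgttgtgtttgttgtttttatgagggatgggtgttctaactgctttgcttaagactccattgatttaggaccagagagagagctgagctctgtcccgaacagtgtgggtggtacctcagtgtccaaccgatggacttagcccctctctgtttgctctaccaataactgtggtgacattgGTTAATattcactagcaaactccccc
Serpina1a (chr12:103863620-103863869, minus strand): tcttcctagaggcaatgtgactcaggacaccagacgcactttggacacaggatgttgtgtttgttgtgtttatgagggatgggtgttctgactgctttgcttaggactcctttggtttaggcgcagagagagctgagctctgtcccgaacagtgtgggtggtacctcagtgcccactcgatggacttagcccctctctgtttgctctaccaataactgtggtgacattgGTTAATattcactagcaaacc
Serpina1e (chr12:103956898-103957147, minus strand): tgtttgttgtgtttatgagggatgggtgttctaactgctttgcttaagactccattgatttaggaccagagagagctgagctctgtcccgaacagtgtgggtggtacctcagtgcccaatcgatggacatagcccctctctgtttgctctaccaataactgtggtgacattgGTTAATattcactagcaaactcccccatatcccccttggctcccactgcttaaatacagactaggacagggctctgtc
Over the bases that align, the promoters of Serpina1b and Serpina1e were identical at 194 of 198 bases (98.0%), those of Serpina1a and Serpina1e at 184 of 193 (95.3%) and those of Serpina1a and Serpina1b at 224 of 243 (92.2%). The pair from the outer sides of the middle interval thus had the highest share of these pairs, over aligned stretches of unlike length. For Serpina1d, also inside the middle interval, the share was 96.3% with Serpina1e and 93.7% with Serpina1b. For Serpina1c it was 95.5% and 92.3%. GTTAAT or its reverse complement occurred in the upstream 250 bases of all of Serpina1a to Serpina1e, of 10 of 51 serpin genes with an entry, and of 6.45% of 31396 autosomal promoters. A serpin gene counted if any of its entries matched, whereas the autosomal share is per promoter entry. A match is a description and not a site in use.

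Such near-identity bears on how well reads can be placed. Reads of 100 bases taken from the reference aligned back uniquely for 43.0% of positions within 50 kb of the boundary at Serpina1d and for 64.5% around the one at Serpina1e, beside 86.9% over the autosomes. Within the genes themselves the share ran from 39.4% (Serpina1c) to 59.6% (Serpina1b) for the 5 copies, and it was 92.0% and 97.5% around the right and left flanks of the cluster. The mice were of a 129 strain and the reference is C57BL/6J, and the number of Serpina1 copies is known to differ between inbred strains. The part of read placement or copy number in these Weak boundaries was not tested.

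The Serpinb cluster on chromosome 1 spans 749 kb (106861173 to 107610484) from Serpinb5 (maspin, an epithelial serpin that does not inhibit proteases) to Serpinb8. A Strong boundary lay outside each edge, 23.7 kb to the left (106835001 to 106840000, score 1.44) and 12 kb to the right (107620001 to 107625000, score 0.839). The neighbouring genes lay beyond them. Vps4b, an ATPase of endosomal sorting, ends 64.4 kb before Serpinb5, and Cdh7, a cadherin gene, starts 2372 kb after Serpinb8. No other protein-coding TSS lay between both flanks, so that the 2 intervals of this cluster, of 385 and 400.0 kb, held serpin genes alone.

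The 1 boundary inside it (107220001 to 107225000) was Strong, with a score of 0.507, close to the limit between the classes. The left interval held Serpinb5, Serpinb12, Serpinb13, a serpin of keratinocytes, and Serpinb3a and Serpinb3d. The right one held Serpinb3b, Serpinb3c, Serpinb11, Serpinb7 (megsin), Serpinb2 (plasminogen activator inhibitor 2) and Serpinb8. The Serpinb3 genes, which encode inhibitors related to squamous cell carcinoma antigen, were therefore split, and their coding sequences were 86.4 to 93.1% identical.

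Serpinb3b is again a matter of annotation. Its GENCODE body of 124 kb contains the boundary and begins next to Serpinb3c, while the RefSeq body of 7.15 kb lies 61.4 kb to the left of the boundary by its start. With RefSeq positions the intervals held 6 and 5 serpin genes, and the boundary fell between Serpinb3b and Serpinb3c in intergenic sequence. Reference reads within 50 kb of it were unique for 62.0% of positions, beside 84.0% and 90.5% at the left and right flanks. Serpinb5 (23.7 kb) and Serpinb8 (32.5 kb), the outermost genes, had the TSSs nearest to a boundary, and Serpinb3a (170.2 kb) and Serpinb7 (177 kb) the farthest.

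The Serpinb cluster on chromosome 13 is the longest, 1161 kb (32842092 to 34002794), and its genes were spread over 4 intervals of 145, 170.0, 810.0 and 300.0 kb. It runs from Serpinb1a, an inhibitor of neutrophil serine proteases, to Serpinb6a, an inhibitor of cathepsin G that hearing depends on. It held 12.9 serpin genes and 2.58 boundaries per Mb. Of its 3 inside boundaries the first was Weak (32900001 to 32905000, score 0.451, 4.29 kb from the TSS of Serpinb1c) and so was the second (33070001 to 33075000, score 0.285, 6.07 kb from the TSS of Serpinb1b).

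The third inside boundary (33880001 to 33885000) was Strong with a score of 2.33, higher than 98.3% of autosomal boundaries. It lay in the body of Serpinb6c, overlapping an exon and intron, 23.2 kb from the TSS on the 3′ side. On its left stood the 810.0 kb interval with 8 serpin genes, Serpinb1b, Serpinb9c to Serpinb9g, Serpinb6d and Serpinb6e, and 1 other protein-coding gene, Gm11397. On its right stood Serpinb6c and Serpinb6a together with 6 other protein-coding genes, among them Ripk1, the kinase of necroptosis, Nqo2, a quinone reductase, and the tubulin genes Tubb2a and Tubb2b. Of the autosomal intervals with a TSS, 95.6% were shorter than the one of 810.0 kb. No CTCF core match lay within 10 kb of this boundary, and reference reads around it were unique for 74.0% of positions.

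Neither edge of this cluster had a boundary within 50 kb. To the left the nearest outside boundary (32755001 to 32760000, Strong, score 0.846) lay 84.6 kb from the cluster, in an intron of Mylk4, a kinase gene, beyond Wrnip1, which ends 19.5 kb before Serpinb1a. To the right it lay 179.7 kb away (34180001 to 34185000, Strong, score 1.10), in Slc22a23, a transporter gene, with the TSS of Psmg4, a proteasome assembly chaperone, at 19.5 kb. Bphl, a hydrolase gene, starts 34.8 kb after Serpinb6a and so shares its interval. Over the 3 clusters, 3 of 6 edges had a boundary within 50 kb, and 44.7% of the ends of all autosomal protein-coding genes did.

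The subfamilies on chromosome 13 were interleaved and split in different ways. The 5 Serpinb6 genes occupied 3 intervals, Serpinb6b in the second, Serpinb6d and Serpinb6e in the third and Serpinb6c and Serpinb6a in the fourth. Serpinb6b and Serpinb6c, each the other's closest paralogue in coding sequence at 87.0% identity, lay 940.5 kb apart with 2 boundaries between them. The 7 Serpinb9 genes, related to the granzyme B inhibitor Serpinb9, occupied 2 intervals, with Serpinb9 and Serpinb9b in the second and Serpinb9c to Serpinb9g in the third. Serpinb9f and Serpinb9g had 98.7% identical coding sequences, and reference reads in them were unique for 44.6% and 21.4% of positions. Serpinb9g, at 398 kb, and Serpinb9f, at 252 kb, were also the members farthest from any boundary.

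Serpinb1c has more than 1 annotated start. By the GENCODE start its TSS lay 4.29 kb to the left of the first inside boundary. By the outermost RefSeq start it lay 38.1 kb to the right, with the boundary inside the gene body. RefSeq also lists a promoter on the left side (32898141 to 32898390), so it has starts on both sides. The boundary thus separates alternative starts of Serpinb1c. Serpinb1a, Serpinb1c and Serpinb1b occupied 3 intervals by the outermost RefSeq starts and 2 by GENCODE. Their coding sequences were 86.1 to 89.9% identical.

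Closest paralogues lay in the same interval for 32 of the 49 clustered genes, 17 of 23 on chromosome 12, 7 of 11 on chromosome 1 and 8 of 15 on chromosome 13. By RefSeq starts the number was 28 of 49. Genes that are each other's closest paralogue enter for both. These counts are to be read beside the numbers of all pairs in the same and in different intervals, given next. Over all pairs within a cluster, the median identity of coding sequences was 60.5% for 117 pairs in the same interval and 58.8% for 136 pairs in different ones on chromosome 12. On chromosome 1 the medians were 58.5% (25 pairs) and 58.6% (30 pairs), and on chromosome 13 they were 64.6% (33 pairs) and 65.4% (72 pairs). The medians in the same and in different intervals were within 2 percentage points of each other in each cluster, and genes in the same interval also lay nearer to each other on the chromosome.

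The lone members stood in 10 intervals, and Serpinh1 was the only one of them that started within 25 kb of a boundary. Serpinh1 (ENSMUSG00000070436.12), on chromosome 7 at 99345376 to 99353239, encodes the collagen chaperone of the endoplasmic reticulum, a serpin that does not inhibit proteases. A Weak boundary (99350001 to 99355000, score 0.320) lay 0.739 kb from its TSS, inside the gene body. The other side of its interval, 129 kb upstream, was a Strong boundary (score 1.93, above 95.5% of autosomal boundaries) at Rps3, a ribosomal protein gene. The TSS lay inside the boundary bin, so the side on which the gene starts is not resolved. Most of the gene body lay beyond the midpoint, outside the interval given to the TSS. At 130.0 kb that interval was longer than only 7.18% of autosomal intervals with a TSS. Reference reads around both its boundaries were unique for 95.5% and 94.0% of positions.

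The promoter of Serpinh1 is shown because the boundary bin covers it. The 250 bases upstream of the RefSeq start are given, with GGGCGG, the GC box of Sp1 family factors, in capitals where it or its reverse complement was found.
Serpinh1 (chr7:99353240-99353489, minus strand): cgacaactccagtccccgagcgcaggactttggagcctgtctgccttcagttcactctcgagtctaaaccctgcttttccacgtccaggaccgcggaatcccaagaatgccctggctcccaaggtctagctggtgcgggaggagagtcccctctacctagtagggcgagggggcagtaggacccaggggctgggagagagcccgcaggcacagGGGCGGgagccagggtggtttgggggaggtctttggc
GGGCGG or its reverse complement occurred in 33.0% of 31396 autosomal promoters, counted per entry, and in 7 of 51 serpin genes with an entry, counted per gene. The heat shock element units GAANNTTC and TTCNNGAA, found in 6.73% and 7.21% of promoters, were not in this window, which says nothing of the heat shock factor that is known to act on the gene.

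**Figure D4:**
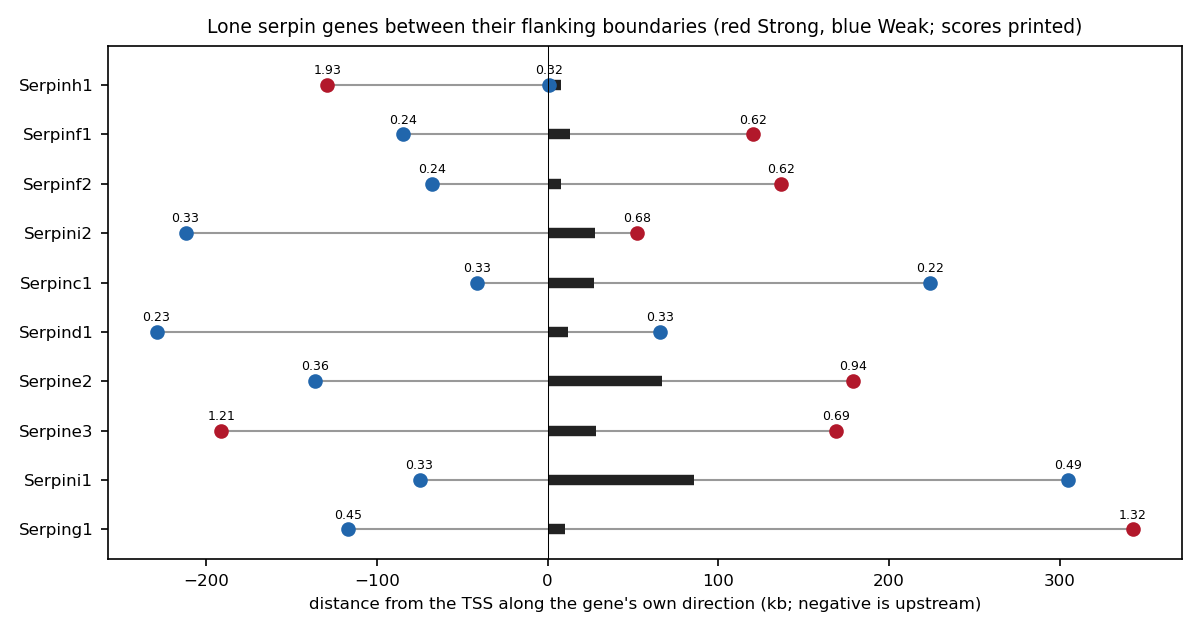
Of the 11 lone serpin genes, 10 with distance from the TSS in kb along the gene's own direction on the x axis (negative is upstream), the gene body as a dark bar and the flanking boundaries as red (Strong) or blue (Weak) points with their scores. Serpinh1 has a boundary at 0.739 kb, and Serpinc1 follows at 41.1 kb.

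Among the inhibitors of coagulation, Serpinc1 (antithrombin, chromosome 1, 160978585 to 161005863) had Weak boundaries on both sides, 41.1 kb upstream (score 0.325) and 224 kb downstream (0.221), and shared its interval of 265 kb with 6 other protein-coding genes. Serpind1 (heparin cofactor II, chromosome 16, 17331371 to 17343575) also stood between Weak boundaries, 229 kb upstream (0.233) and 66.1 kb downstream (0.331), with 9 other genes in 295 kb. Both antithrombotic genes thus lay in gene-rich intervals with low-scoring ends.

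Serpinf2 (alpha-2-antiplasmin, which inhibits plasmin in fibrinolysis) and its neighbour Serpinf1 (pigment epithelium-derived factor, which does not inhibit proteases) lay on chromosome 11 in the same interval of 205 kb, with a Weak boundary upstream (0.241) at 67.9 and 84.8 kb and a Strong one downstream (0.625) at 137 and 120.2 kb. They start 16.9 kb apart, and no boundary separated them.

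Serping1, the C1 inhibitor of complement and of plasma kallikrein, lay on chromosome 2 (84765387 to 84775444) in the longest and most gene-rich interval of a lone member, 460.0 kb with 16 other protein-coding genes. A Weak boundary (0.452) lay 117 kb upstream and a Strong one (1.32) 343 kb downstream.

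Serpini1 (neuroserpin, an axonally secreted inhibitor of tissue plasminogen activator) and Serpini2 lie 287 kb apart on chromosome 3 and were separated by 1 Weak boundary (75480001 to 75485000, score 0.327), which lay 0.344 kb from the TSS of Wdr49. It was 75 kb upstream of Serpini1 and 212 kb upstream of Serpini2. The far ends were Weak for Serpini1 (0.492, 305 kb downstream) and Strong for Serpini2 (0.683, 52.6 kb downstream). With Strong boundaries alone both genes shared an interval of 850.0 kb.

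Serpine2 (protease nexin 1, an inhibitor of thrombin made by glia and neurons), on chromosome 1 at 79794197 to 79861180, lay in 315 kb between a Weak boundary 136 kb upstream (0.364) and a Strong one 179 kb downstream (0.942). Serpine3, on chromosome 14 at 62663667 to 62692243, was the 1 lone member with Strong boundaries on both sides, 191 kb upstream (1.21) and 169 kb downstream (0.689). It was also the lone member farthest from a boundary. Neither gene had a boundary inside its body.

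The midpoint of a boundary bin lay inside the body of 4 of 60 serpin genes (6.67%, beside 13.2% of all autosomal protein-coding genes), namely Serpina1b, Serpinb3b, Serpinb6c and Serpinh1. Serpina1d is not among them, since the bin reaches into it but the midpoint lies outside. By RefSeq bodies the count was 3, Serpinb1c, Serpinb6c and Serpinh1. Serpinb6c and Serpinh1 were thus in both counts. The median serpin body was 11.3 kb and that of all genes 17.6 kb, and the share was not compared at equal length. Of the 60 genes, all had a RefSeq entry, 46 with a start within 1 kb of the GENCODE one and 7 with a start over 10 kb away.

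A CTCF core match lay within 10 kb of 14 of 19 boundaries that flank lone members, of 3 of 6 flanks of clusters and of 2 of 6 boundaries inside them, beside 59.0% of all autosomal boundaries and 41.8% of windows of the same size. The 12-base word CCAGAAGAGGGC made up 56.9% of the 84922 autosomal core matches, and it was the nearest match at 7 of the 14 lone boundaries and at 1 of the 5 cluster boundaries. Of all core matches 70.3% lay in sequence that the reference masks as repeat, and so did 11 of the 14 and 2 of the 5. The left boundary of Serpinc1 had a different word and its right one this word, both in masked sequence, and the right boundary of Serping1 had another word, outside masked sequence.
Serpinc1, right boundary (chr1:161199375-161199404, plus strand): tcacacacaCCAGAAGAGGGCatcagatcc
Serpind1, left boundary (chr16:17106730-17106759, minus strand): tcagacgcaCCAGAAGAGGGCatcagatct
Serpinh1, boundary at the TSS (chr7:99348504-99348533, minus strand): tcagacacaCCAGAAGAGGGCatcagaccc
Serping1, right boundary (chr2:84890157-84890186, minus strand): cgcatatagCCACCAGAGGGCgagccatgt
The first 3 of these share their core and much of what surrounds it, and the fourth differs from them within the core and on both sides of it. Core matches were sparse within the clusters, at 12 per Mb on chromosome 1, 17.5 on chromosome 12 and 15.5 on chromosome 13, beside 35.4 per Mb of the autosomes. The recognition site of DpnII, GATC, was not sparse there, with 2.75, 2.83 and 3.04 per kb beside 2.5 over the autosomes.

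Reference reads were unique for 76.9% of positions in the Serpina cluster, 81.4% in the Serpinb cluster on chromosome 1 and 65.2% in the one on chromosome 13, beside 86.9% of the autosomes. Of the 6 boundaries inside clusters, 2 had at least 80% unique reads within 50 kb, both of them on chromosome 13 and Weak. All 6 flanks met that limit, and 17 of 19 boundaries at lone members did, the exceptions being both boundaries of Serpine2 at 77.5%.

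**Figure D5:**
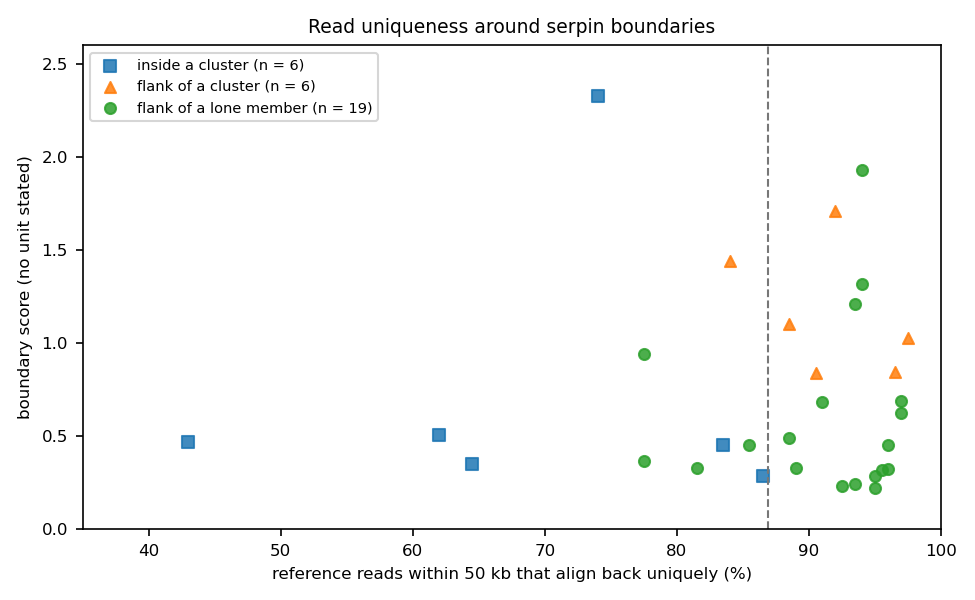
Share of reference reads within 50 kb that align back uniquely (x axis, %) against boundary score (y axis, no unit stated) for the 31 boundaries around serpin genes, by place. The dashed line is the autosomal share, 86.9%. The 4 boundaries with the lowest shares, 43.0 to 74.0%, all lie inside clusters.

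A list of 22 genes for proteases that serpins inhibit and for partners such as vitronectin and the clearance receptor Lrp1 was placed in the same way. Of these, 3 (13.6%, beside 24.3% of all genes) started within 25 kb of a boundary, and none within 10 kb (beside 11.7% of all genes). They were F11 (coagulation factor XI, 19.5 kb), Plg (plasminogen, 23.9 kb) and Ctss (cathepsin S, 24.3 kb), each with a Strong boundary. The body of 2 of the 22, F11 and Plg, held a boundary. The median distance was 55.4 kb, close to the 58.4 kb of all autosomal protein-coding genes. The farthest were Plaur (135 kb), the urokinase receptor, and C1s1 (159.9 kb), a complement protease that Serping1 inhibits. None of the 22 genes had its TSS in an interval with a serpin gene. Serpin genes occupied only 19 of the 5512 autosomal intervals with a protein-coding TSS, so this count says little about the list.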

How the data were processed

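In situ Hi-C was measured on 2 biological replicates of sorted Olfr17-positive neurons. The authors combined both replicates and called boundaries on GRCm38, per the labels' design text. The boundary score in column 5 was used as deposited by the authors. No source used here names the caller, its window or the aligner. Members, lists and alternatives were chosen with earlier results of these data known.

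Genes were taken from GENCODE M21 and sequence from the RefSeq GRCm38.p6 genome, on which 1000 of 1000 single-exon GENCODE transcripts checked were identical. Coordinates are 1-based. A gene lay in the interval that held its annotated 5′ end. Placement was tested on simulated data. Coding sequences (1 transcript per gene) were aligned globally with Biopython 1.88, and identity was counted over the longer sequence. CTCF matches were counted in windows of 20 kb. Protein sequences were not used here. Read uniqueness was measured with reads of 100 bases every 500 bases (100 within genes, 5000 over the autosomes), aligned with minimap2 2.31-r1302, counting a mapping quality of at least 30 as unique. Promoters came from RefSeq (GRCm38.p6), where 51 members had an entry. The RefSeq start of a gene was its outermost 5′ end, and promoter entries may belong to other starts.

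All lone members were named but 1, which is not reported by itself here and remains in the counts and medians. In clusters the rule named the outermost genes, the 2 nearest and 2 farthest, those within 10 kb of a boundary or with one in the body, and the genes next to the cluster or its boundaries. Of other genes, Ripk1, Nqo2, Tubb2a, Tubb2b, Gm11397, Rps3, Wdr49, F11, Plg and Ctss were chosen after their values were seen. Alternatives were Strong boundaries alone, other distances, gene midpoints, bin edges, other cluster rules and pseudogenes.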

Additional observations from a re-analysis of the deposited data

How the results depend on the processing

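Of 29 alternatives to the reported counts and medians, 21 stayed within 1.5 times the reported count or within the 95% binomial interval of the median. That interval treats genes or boundaries as independent, which they are not. It serves here only as a yardstick for the size of a change and not as a test. With Strong boundaries alone, 3 serpin genes had a TSS within 25 kb (16.2% of all genes did), the median distance was 208 kb (97 kb for all genes), 2 boundaries lay inside clusters, 2 gene bodies held a boundary, and the median flanking score was 0.999. Within 10 and 50 kb the counts were 3 and 15. RefSeq positions and a limit on read uniqueness were added after the data were seen. RefSeq starts left the count within 25 kb at 8. In well-mapped sequence 2 of 6 inside boundaries were left. Fewer boundaries give longer distances by construction. No paired analysis was possible because both replicates were combined into 1 list. Depth is unknown, and a boundary missing from the list may be undetected.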

Other observations

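Serpin genes outside the protein-coding autosomal set were placed too. There were 7 autosomal serpin pseudogenes, 5 on chromosome 12, 1 on chromosome 1 and 1 on chromosome 13. None had its 5′ end within 25 kb of a boundary, where the share of all autosomal protein-coding genes was 24.3%. With so few entries this is no more than a description. Their distances ran from 39.3 kb (Serpinb1-ps1) to 236 kb (Serpina3d-ps) with a median of 138 kb. All 5 Serpina pseudogenes lay in the interval of 480.0 kb that also held the Serpina3 genes. Serpinb10, annotated as a polymorphic pseudogene in the reference strain, lay 93.5 kb from the Strong boundary beyond Serpinb8.

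Serpina7, the thyroxine-binding globulin gene on the X chromosome (139079257 to 139085236), lay in an interval of 1695 kb between Weak boundaries with scores of 0.287 and 0.435, 1383 and 312 kb from its TSS. That interval was longer than any of those of the 60 autosomal serpin genes, the longest of which was 810.0 kb. It was not compared with other intervals of the X chromosome.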
